A study of Schmidtea mediterranea with 58 samples.

Results

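The comparison described here is that of *equinox* RNAi with control at 3 h post amputation (hpa). It rests on 10 of the 58 libraries of the series, 5 labelled control and 5 labelled *equinox* RNAi, chosen by treatment and by the time in the library title. The animals were planarians, *Schmidtea mediterranea* of the strain CIW4, fed liver mixed with double-stranded RNA (dsRNA) in 8 feedings. Control animals received dsRNA of *unc-22*, which is not a planarian gene but one of *C. elegans*, and the others received dsRNA of *equinox*. Post-pharyngeal fragments were cut, the anterior-facing wounds were collected, and 5 wounds were pooled for each replicate, so every value below is that of a mixture of cell types from 5 wounds. In such tissue, fewer cells of a type and less RNA per cell cannot be told apart.

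Planarians rebuild missing body parts from neoblasts, the dividing cells of the adult animal. Within hours of any injury, cells at the wound switch on a common set of wound-induced genes, whether or not tissue has to be replaced, and proliferation and patterning follow later. *equinox* (dd_20318) encodes a predicted secreted protein of the wound epidermis, and the question at this time is what animals fed its dsRNA show during the first, general response to a wound. Feeding dsRNA is meant to lower the matching mRNA in all tissues before the cut. The beginning of the *equinox* coding sequence is shown because it identifies the transcript against which the label of every library is checked. The letters are those given by the authors for dd_20318. The start codon, in capitals, was inferred here as the first ATG with no stop codon in frame within the 399 letters held.
equinox (dd_20318), first 150 bases of the coding sequence: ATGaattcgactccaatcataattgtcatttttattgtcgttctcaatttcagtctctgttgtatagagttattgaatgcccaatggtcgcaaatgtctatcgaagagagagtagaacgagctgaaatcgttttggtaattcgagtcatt

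The targeted transcript did not follow the labels at 3 hpa. In counts scaled to libraries of 1000000 (CPM), the control libraries held 4.14, 5.77, 6.10, 4.20 and 5.75 of dd_20318. The libraries labelled *equinox* RNAi held 9.55, 31.8, 33.4, 1.77 and 7.96. Of these 5 libraries, 4 lay above every control library and 1, replicate 4, lay below all of them. The mean was 5.19 ± 0.942 CPM in control and 16.9 ± 14.6 CPM in the libraries labelled *equinox* RNAi (SD, n = 5 each), and the fitted difference was higher by 1.73 ± 0.49 on the log2 scale (SE, adjusted p = 0.0203 by edgeR's quasi-likelihood test over all transcripts). That call was lost in 9 of 20 other ways of fitting the data, among them the fit of the 10 libraries alone (adjusted p = 0.132), and an exact two-sided permutation test of the 10 values gave p = 0.143. At 0 hpa the same transcript spread from 2.85 to 39.3 CPM in the 4 libraries labelled *equinox* RNAi, against 4.31 to 7.58 CPM in control. From 16 hpa onwards every library labelled *equinox* RNAi lay below every control library. The counts do not say whether reads came from the endogenous mRNA or from another source of the same sequence, and the cause was not tested. Since the check goes against the label at 3 hpa, the group is called the libraries labelled *equinox* RNAi, or the labelled RNAi libraries, throughout.

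**Figure D1:**
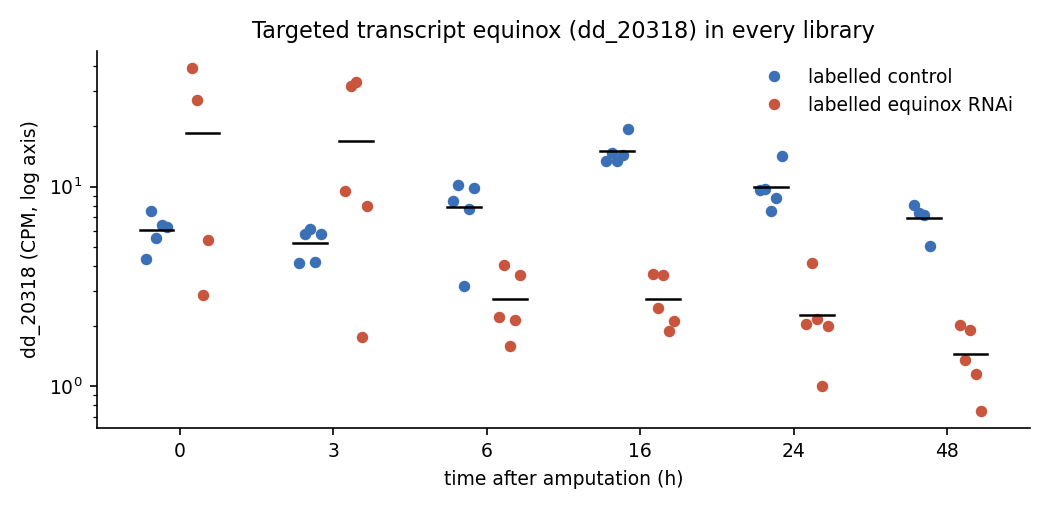
Level of dd_20318 (CPM, log axis) in each of the 58 libraries by time after amputation, with points for libraries and bars for group means, control in blue and libraries labelled *equinox* RNAi in red. At 3 hpa the red points run from 1.77 to 33.4 CPM and the blue points from 4.14 to 6.10 CPM.

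The depth of the 10 libraries ran from 1312330 to 20162843 counts. The lowest was control replicate 3, and the others held at least 9909686. Control replicate 3 had a count for 19606 transcripts, against 25193 to 26825 in the other controls. Its mean rank correlation with the other controls was 0.967, against 0.980 to 0.983 for those. The libraries labelled *equinox* RNAi were not alike either: the mean rank correlation with control was 0.981 for replicates 1 and 2, 0.955 for replicate 3, 0.970 for replicate 4 and 0.968 for replicate 5. The normalization factors, which correct for a few abundant transcripts taking up reads, were 1.03 and 1.04 in replicates 1 and 2 and 0.912 to 0.943 in replicates 3, 4 and 5, against 1.06 to 1.13 in control. Replicate 1 labelled *equinox* RNAi is a 3 hpa library by its title and a 0 hpa library by its time field. Its level of dd_4392, an early wound-induced transcript, was 263.0 CPM, within the 225.2 to 267.7 CPM of the other labelled RNAi libraries at 3 hpa and above the 38.9 to 60.6 CPM of those at 0 hpa, and it was kept at 3 hpa.

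Between the treatments, 2282 of 20129 transcripts tested (11.3%) were called at an adjusted p below 0.05, 1164 higher (5.78%) and 1118 lower (5.55%) in the libraries labelled *equinox* RNAi. Rises and falls were of different kinds. The rises were small changes of abundant transcripts, with a median log2 fold change of 0.414 and a median level of 51.2 CPM in control, and only 50 of them reached 2-fold. The falls were larger changes of scarcer transcripts, with a median size of 0.86 and a median level of 9.29 CPM in control, and 456 of them reached 2-fold. Of the transcripts that rose, 403 had a mean over 100 CPM, against 38 of those that fell and 1875 of all 20129 tested. Over all libraries of the series, the median level on the log2 CPM scale was 5.97 for rises, 2.5 for falls and 3.1 for all transcripts tested. The share of all counts on the transcripts called higher was 21.9% to 23.7% in the control libraries and 25.8% to 29.8% in the labelled RNAi libraries. The 2 groups of 5 libraries did not overlap for 716 of the 1164 rises and 538 of the 1118 falls. Of all transcripts tested, 6.33% lay wholly above control and 4.37% wholly below, 10.7% together. The calls were made with the same 10 libraries, so the larger share among them follows in part from the choice and is no separate support. The median log2 fold change of all transcripts tested was 0.019.

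**Figure D2:**
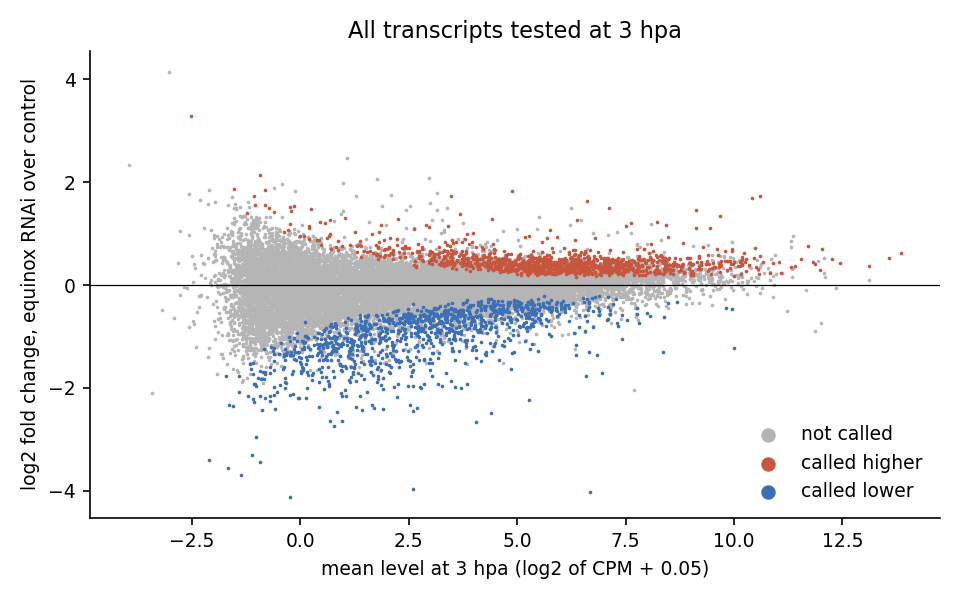
Each point is 1 of 20129 transcripts, with its mean level at 3 hpa (log2 of CPM + 0.05) on the horizontal axis and its log2 fold change, libraries labelled *equinox* RNAi over control, on the vertical axis. The 1164 transcripts called higher (red) sit at higher levels and closer to 0 than the 1118 called lower (blue).

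How many transcripts were called depended on single libraries. Without control replicate 3, 616 were called higher and 827 lower (3.07% and 4.13% of 20048), and 612 of the rises and 807 of the falls in all libraries were among them. Without replicate 3 labelled *equinox* RNAi, 258 were called higher and 424 lower, and without replicate 4 or 5 the counts were 383 and 490, or 409 and 452. Without labelled RNAi replicate 1 they were 1880 and 1714, and without replicate 2 they were 1680 and 1410. Among the controls, leaving out replicate 2 gave 412 and 407 calls, replicate 4 gave 414 and 506, and replicate 1 gave 593 and 733. With other size factors (RLE) the calls split into 776 higher and 1158 lower, so 40.1% were rises in place of 51%. The 10 libraries fitted alone gave 1577 higher and 1786 lower (9.28% and 10.5% of 16990), and DESeq2 gave 1071 and 1377 (6.02% and 7.74% of the 17787 to which it gave an adjusted p).

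The same order was seen library by library. Over the transcripts called higher, the median difference from the control mean, on the log2 scale, was 0.242 in replicate 1 labelled *equinox* RNAi, 0.247 in replicate 2, 0.604 in replicate 3, 0.498 in replicate 4 and 0.476 in replicate 5. Over the transcripts called lower it was -0.484, -0.595, -1.12, -0.937 and -0.974 in the same order. All 5 libraries differed from control in the same direction, with replicates 1 and 2 nearer to it. These medians describe transcripts that were chosen with the same libraries. A smaller core was called whichever 1 of the 10 libraries was left out, 201 higher and 307 lower, or 17.3% of the rises and 27.5% of the falls. In that core the median size was 0.522 for rises and 1.15 for falls, and 184 of the falls reached 2-fold.

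**Figure D3:**
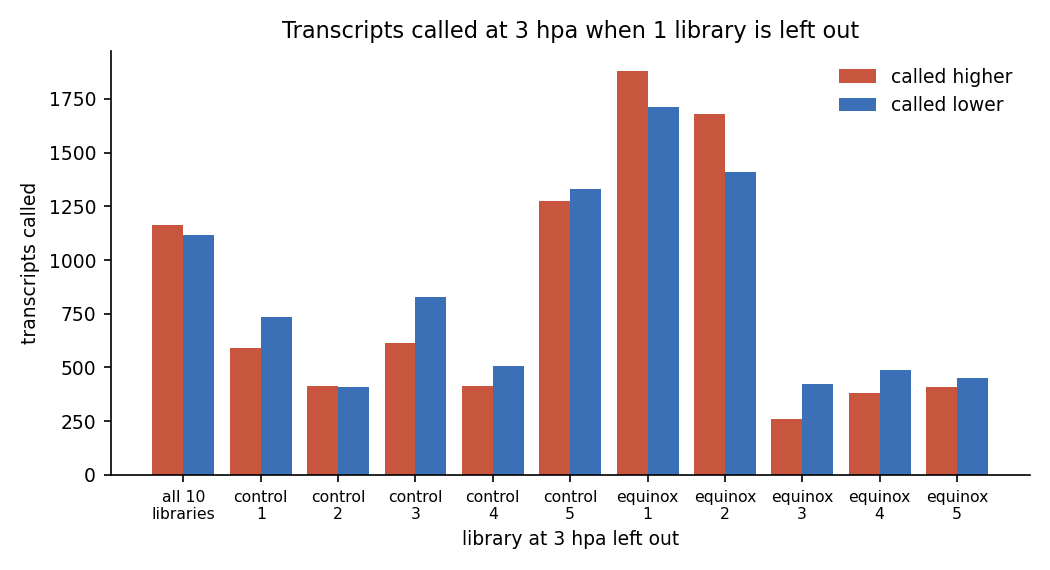
Number of transcripts called higher (red) and lower (blue) in libraries labelled *equinox* RNAi at 3 hpa, with all 10 libraries and with each left out in turn. The red bars are lowest at 258, without replicate 3 labelled *equinox* RNAi, the blue bars at 407, without control replicate 2, and both are highest without labelled RNAi replicate 1, at 1880 and 1714.

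The largest changes were looked for among transcripts that averaged at least 2 CPM in 1 group, had groups that did not overlap, and were called with all libraries, in the 10 libraries alone and without control replicate 3. Within these limits the largest fall was that of dd_6337, for which no name was held here. Control libraries held 199.4, 173.0, 181.0, 197.0 and 216.9 CPM and the libraries labelled *equinox* RNAi 16.6, 8.72, 9.17, 10.6 and 14.2 CPM. The groups stood far apart (log2 fold change -4.03 ± 0.244, SE, adjusted p = 1.71e-17, and -4.05 without control replicate 3). Next was dd_886, at 6.99, 6.00, 18.3, 19.3 and 6.47 CPM in control and 0.507, 0.404, 0.422, 1.08 and 0.976 CPM in the labelled RNAi libraries. Its controls spread widely, with replicates 3 and 4 well above the others, yet the lowest of them was above every labelled RNAi library (log2 fold change -3.96 ± 0.494, adjusted p = 1.52e-07). dd_5199 went from 35.8, 37.9, 16.3, 34.0 and 18.6 CPM to 7.38, 7.68, 1.90, 3.61 and 2.25 CPM (-2.65 ± 0.423, adjusted p = 4.53e-05). Within the labelled RNAi group replicates 1 and 2 again held more of it than replicates 3, 4 and 5.

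The other 3 of the 6 largest falls within these limits were scarce transcripts. dd_6955 had a mean of 2.93 ± 1.23 CPM in control and 0.386 ± 0.226 CPM in the labelled RNAi libraries (-2.74 ± 0.6, adjusted p = 0.00295). dd_2637 had 3.29 ± 0.708 and 0.488 ± 0.298 CPM (-2.65 ± 0.451, adjusted p = 0.000102). dd_6698 had 2.72 ± 0.671 and 0.409 ± 0.139 CPM (-2.64 ± 0.533, adjusted p = 0.00128). In the shallow control replicate 3 these rested on 6, 6 and 5 counts, and their log2 fold changes without it were -2.69, -2.62 and -2.61. Transcripts below the limit of 2 CPM had called falls of similar or larger size, such as dd_17526, which was named after its value was seen and went from 1.51 to 0.0833 CPM (-4.11, adjusted p = 5.71e-08).

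Among the rises within the same limits, dd_4570 changed most, from 13.5, 15.5, 10.8, 11.8 and 11.9 CPM in control to 40.5, 36.8, 55.0, 48.5 and 51.0 CPM in the libraries labelled *equinox* RNAi (log2 fold change 1.83 ± 0.204, adjusted p = 6.38e-09). Very abundant transcripts followed. dd_122 had 762.1, 825.4, 687.5, 608.6 and 700.1 CPM in control and 2057.7, 1737.1, 3332.2, 2286.8 and 2419.3 CPM in the labelled RNAi libraries (1.72 ± 0.218, adjusted p = 1.95e-07). Replicate 3 of that group was the highest and replicate 2 the lowest, and none overlapped with the control libraries. dd_66 rose from 643.0 ± 72.6 to 2081.7 ± 417.7 CPM (1.69 ± 0.192, adjusted p = 9.02e-09). dd_279 rose from 298.6 ± 45.0 to 824.9 ± 118.3 CPM (1.47 ± 0.163, adjusted p = 4.39e-09). dd_1491 rose from 47.2 ± 9.44 to 148.6 ± 17.7 CPM (1.63 ± 0.154, adjusted p = 2.23e-11), and its highest labelled RNAi library was replicate 1, not replicate 3. dd_72 rose from 72.2 ± 9.76 to 205.4 ± 51.7 CPM (1.5 ± 0.265, adjusted p = 0.00025). The groups of these 12 transcripts do not overlap because they were chosen that way, and an exact permutation test of them is fixed by the choice and was not used. The choice also used 3 of the fits, and no call was lost under any of the 20 alternatives. None of the 12 had a name in the annotation used here. That annotation covered only the first 1200 transcripts in alphabetical order of ID, so the lack of a name says nothing of what they encode.

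**Figure D4:**
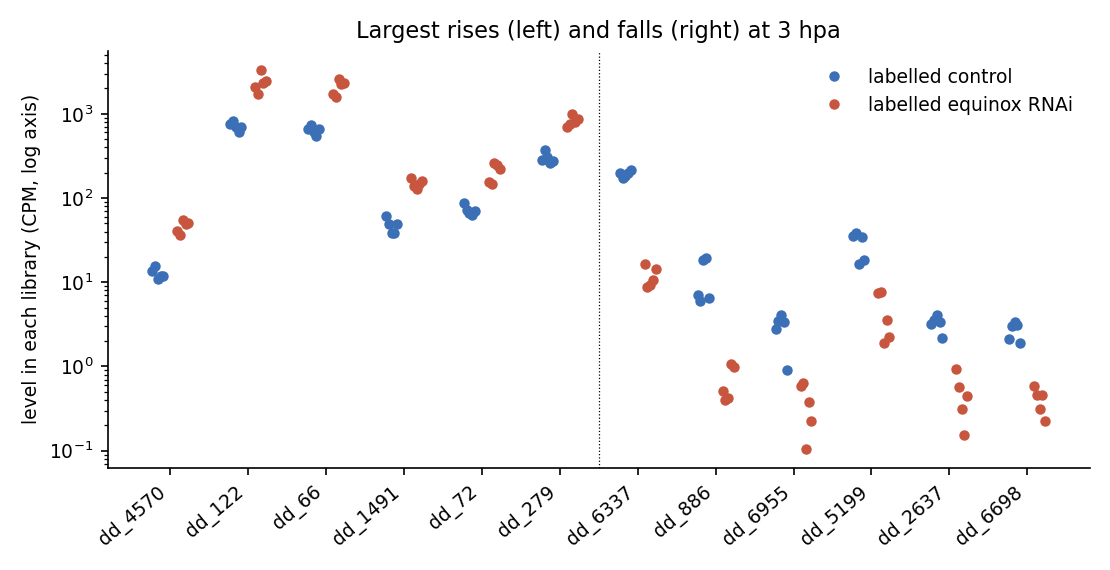
Level (CPM, log axis) of the 6 largest rises and 6 largest falls among transcripts of at least 2 CPM that were chosen for groups without overlap, in each of the 5 control libraries (blue) and the 5 libraries labelled *equinox* RNAi (red) at 3 hpa. No red point overlaps with the blue points of the same transcript, and dd_6337 lies at 173.0 to 216.9 CPM in control and 8.72 to 16.6 CPM in the labelled RNAi libraries.

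Names were held only for transcripts among the first 1200 in alphabetical order of ID. Of these, 730 had a name, given as the closest human protein, and 574 of the 730 were tested. The names come from 1 of a pair of tables that name the same transcripts differently, so each name below is only as good as that table. The table not used is the one the paper gives with its *equinox* RNAi comparison. Of the 574 tested, 42 were called higher and 37 lower, 13.8% against 11.3% of all transcripts. The roles given below are those of the human proteins. The 3 transcripts with a match to ZNFX1, an RNA helicase that takes part in antiviral defence and, in *C. elegans*, in inheritance of small-RNA silencing, all fell. dd_10696 had 142.7, 134.7, 113.2, 153.9 and 141.3 CPM in control and 82.7, 96.8, 78.0, 62.7 and 70.2 CPM in the labelled RNAi libraries (log2 fold change -0.82 ± 0.168, adjusted p = 0.00153). dd_10633 fell by 0.67 ± 0.152 (adjusted p = 0.00396) and dd_10024 by 0.69 ± 0.164 (adjusted p = 0.00589), with some overlap between the groups because control replicate 3 was the lowest control for both. Reads that match more than 1 of the 3 could not be told apart here.

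Regulators of ubiquitin and of inflammatory signalling were among the other falls. CYLD (dd_10719), a deubiquitinase that cuts ubiquitin chains off signalling proteins upstream of NF-kappaB, had 52.6, 51.7, 45.4, 55.2 and 42.1 CPM in control and 29.3, 31.1, 17.2, 18.5 and 20.8 CPM in the labelled RNAi libraries (-1.08 ± 0.22, adjusted p = 0.00149). The groups did not overlap, and replicates 1 and 2 were nearest to control. TRAF2 (dd_10117), an adaptor that carries signals of the TNF receptor family, went from 22.2, 19.2, 25.1, 20.7 and 21.4 CPM to 18.2, 13.5, 15.9, 14.5 and 16.8 CPM (-0.43 ± 0.105, adjusted p = 0.00655). SENP8 (dd_10711), a protease for the ubiquitin-like protein NEDD8, fell from 5.93 ± 1.41 to 2.32 ± 1.07 CPM (-1.32 ± 0.29, adjusted p = 0.00312).

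Of the falls with a human match, THNSL2 (dd_10188), a relative of threonine synthase, had the smallest adjusted p, with 8.74, 9.46, 7.46, 8.23 and 7.90 CPM in control and 3.4, 3.81, 5.59, 4.77 and 5.40 CPM in the labelled RNAi libraries (-0.90 ± 0.173, adjusted p = 0.000643). Here replicates 1 and 2 were the farthest from control. CYP2S1 (dd_10722), a cytochrome P450, fell from 13.8 to 7.74 CPM (adjusted p = 0.00184). The protein methyltransferases EEF1AKMT4 (dd_10513) and CAMKMT (dd_10028), which modify elongation factor 1A and calmodulin, fell by 0.83 and 0.93 on the log2 scale (adjusted p = 0.00727 and 0.00732). TMEM234 (dd_10533) and TMEM230 (dd_10050), both membrane proteins, fell by 2.16 and 2.10 from levels of 3.29 and 3.00 CPM (adjusted p = 0.00113 and 0.00283).

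Of the rises with a human match, the smallest adjusted p was that of OSR1 (dd_10039), a zinc-finger transcription factor of the odd-skipped family. It had 5.34, 4.68, 4.75, 4.64 and 4.22 CPM in control and 9.48, 8.20, 8.11, 7.15 and 8.41 CPM in the labelled RNAi libraries (0.81 ± 0.142, adjusted p = 0.000184), with every labelled RNAi library above every control. FOXRED1 (dd_10791), an assembly factor of mitochondrial complex I, rose to 19.9 CPM (0.84 ± 0.175, adjusted p = 0.00171). LDB3 (dd_10318), a protein of the muscle Z-disc, rose to 16.5 CPM (0.67 ± 0.146, adjusted p = 0.00288). PTPRH (dd_10477), a receptor-type tyrosine phosphatase, rose from 1.54 to 3.17 CPM (1.03 ± 0.232, adjusted p = 0.00382). The tRNA methyltransferase TRMT1 (dd_10289) rose from 10.6 to 16.8 CPM and TRDMT1 (dd_10483), another tRNA methyltransferase, rose from 5.20 to 8.76 CPM (adjusted p = 0.00881 and 0.00945).

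The remaining named rises were smaller or closer to the threshold. SPARCL1 (dd_1021), a matricellular protein, had 168.7, 176.4, 172.9, 184.0 and 205.4 CPM in control, and the labelled RNAi libraries ran from 209.8 to 300.5 CPM (0.51 ± 0.137, adjusted p = 0.0143). Its groups did not overlap, although the highest control and the lowest labelled RNAi library were close. The glycolytic enzyme pyruvate kinase, PKM (dd_10576), rose by 0.73 ± 0.191 (adjusted p = 0.0127), with only 2 counts in control replicate 3 (0.65 without it, adjusted p = 0.0282). TUBG1 (dd_10033), the gamma-tubulin that nucleates microtubules, rose by 0.43 (adjusted p = 0.0157), the sugar-phosphate transporter SLC37A2 (dd_1048) by 0.31 (adjusted p = 0.0161), the splicing-associated GPATCH1 (dd_10700) by 0.32 (adjusted p = 0.0176) and the transcriptional corepressor CTBP2 (dd_1063) by 0.32 (adjusted p = 0.0206). Without control replicate 3 the rise of CTBP2 was no longer called (adjusted p = 0.0536). Of all the annotated transcripts named so far, TRMT1, SPARCL1, TUBG1, SLC37A2, GPATCH1, CTBP2 and CAMKMT lost the call without at least 1 of the 10 libraries, with adjusted p up to 0.0838 (TUBG1, without replicate 3 labelled *equinox* RNAi), and the others kept it whichever was left out.

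Grouped by function, 252 transcripts of 18 lists were tested, and 19 were called higher and 14 lower, 13.1% against 11.3% of all. The lists built on names draw only on the first 1200 transcripts in alphabetical order of ID, so each covers only a slice of its function. In the list of ribosome biogenesis factors 3 of 20 were higher, where 5.78% of all transcripts were, none was lower, and the median log2 fold change was 0.157. They were NLE1 (dd_10113) and TBL3 (dd_10336), WD-repeat proteins of the large- and small-subunit precursors, at 0.40 and 0.31, and the helicase DHX37 (dd_10340) at 0.49 (adjusted p = 0.0316, 0.03 and 0.0389). Without control replicate 3 only 1 of the 3, NLE1, was called. RPL8 (dd_108), a protein of the large ribosomal subunit, rose from 1005.0 ± 32.5 to 1320.1 ± 185.7 CPM (0.39, adjusted p = 0.0277), 1 of 3 ribosomal protein transcripts tested. In the splicing and RNA decay list 4 of 21 were higher, namely GPATCH1, the helicase DHX16 (dd_10434) at 0.41, INTS4 (dd_10034), a subunit of the Integrator complex, at 0.40 and SF3A1 (dd_1001), a protein of the U2 snRNP and named after its value was seen, at 0.41. In the same list TENT4A (dd_10037), a non-canonical poly(A) polymerase, was lower by 0.91. Without control replicate 3 only GPATCH1 of these was called, so 1 of 21 was higher and 0 were lower (edgeR, adjusted p = 0.0565 to 0.0862 for the other 4).

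Extracellular matrix transcripts had the highest median of the lists of 10 or more tested, 0.224 over 12. Of these SPARCL1 and DDR2 (dd_10406), a collagen receptor, were higher (DDR2 0.24, adjusted p = 0.0279) and none was lower. COL2A1 (dd_1070), a fibrillar collagen, was at 656.9 CPM in control and 967.8 CPM in the labelled RNAi libraries and did not pass the test (adjusted p = 0.0527). Among signalling ligands, receptors and inhibitors, ERBB4 (dd_10499), an EGF-family receptor, was higher (0.29, adjusted p = 0.0318) and UNC5D (dd_10585), a netrin receptor, was lower (-0.30, adjusted p = 0.0377), with 18 of 20 not called. Of 17 transcription factors OSR1 and CREB3L1 (dd_1032), a membrane-bound factor of the secretory stress response, were higher, and none was lower.

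Lists with more than 1 call, all of them falls, were those of TRAF, cell death and innate signalling, of protein folding and ubiquitin, and of the secretory pathway, where 5.55% of all transcripts were lower. In the first, CYLD, TRAF2 and TRAF4 (dd_10536; -0.54, adjusted p = 0.0449) were lower, none of 15 was higher, and the median was -0.0759. A second transcript matching TRAF2 (dd_10569) had a log2 fold change of 0.23 and was not called (adjusted p = 0.175). In the second, HSCB (dd_10268), a co-chaperone of iron-sulphur cluster assembly, fell from 9.66, 9.41, 7.46, 10.2 and 6.38 CPM to 6.37, 4.39, 0.843, 1.69 and 0.976 CPM (-1.57, adjusted p = 0.0237), with replicates 3, 4 and 5 far below the others. The prefoldin subunit PFDN6 (dd_1030) fell by 1.11 and the cyclophilin PPID (dd_10370) by 0.50 (adjusted p = 0.0367 and 0.0274), so 3 of 14 were lower and none higher. In the third, both transcripts matching TEX261 (dd_10021 and dd_10450), a protein of the early secretory pathway, were lower by 0.84 and 0.89, 2 of 15. Without control replicate 3 the calls of PFDN6, PPID, TRAF4 and dd_10450 were lost, leaving 2 of 15, 1 of 14 and 1 of 15 lower.

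Lists that stand for tissues the wound fragments can hold are given next, beside 11.3% called over all transcripts. Those built on names likewise hold only members among the first 1200 transcripts by ID and do not cover a tissue. Of 30 neuronal transcripts, the calcium channel CACNA1C (dd_10156) and the receptor phosphatase PTPRD (dd_10176) were higher and LRRC4B (dd_10688), a synaptic adhesion protein, was lower, with a median of -0.00182. Of 31 cilium and axoneme transcripts only POC1A (dd_10806), a centriole protein, was called, at 0.66 (adjusted p = 0.0254), and the median was 0.13. Of 10 muscle transcripts only LDB3 was called. Of 14 cell cycle, DNA repair and germ-cell factors only WDHD1 (dd_10217), a replication factor, was called, at 0.70 (adjusted p = 0.0291). Of 10 transcripts of mitochondrial energy metabolism only BCKDHA (dd_10732), of branched-chain amino acid breakdown, was called, at -0.51 (adjusted p = 0.0353). Transcripts the methods give as mitochondrial took 0.374% to 0.524% of the counts in control and 0.283% to 0.387% in the labelled RNAi libraries, and 1 of 8, dd_753, was lower (-0.54, adjusted p = 0.0421). The part of these differences in the other results was not tested. Without control replicate 3, 11 list members were called higher and 6 lower. Of the 32 called members named here by the fixed rule, OSR1, CYLD, TRAF2 and LDB3 were called whichever library was left out, and each of the others lost the call without at least 1.

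The general wound response at 3 hpa was measured first by 8 early wound-induced transcripts, listed by number. In control, 7 of the 8 rose from 0 to 3 hpa (1.54% of all transcripts did), and the same 7 rose in the libraries labelled *equinox* RNAi (0.979% of all). dd_4392 rose most, by 2.17 on the log2 scale in control and by 2.29 in the labelled RNAi libraries. At 3 hpa it was at 300.0, 304.2, 269.2, 232.6 and 299.9 CPM in control and 263.0, 267.7, 237.0, 225.2 and 245.6 CPM in the labelled RNAi libraries, with overlapping groups (-0.18 ± 0.135, adjusted p = 0.35). The others rose by 0.59 to 1.17 in control and by 0.56 to 1.11 in the labelled RNAi libraries. The 1 without a call in either, dd_10923, had changes of 0.55 and 0.77 (adjusted p = 0.142 and 0.052).

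Between the treatments at 3 hpa, 1 of the 8 passed the test. dd_5853 had 36.2, 40.7, 33.9, 31.9 and 29.6 CPM in control and 32.1, 31.0, 26.9, 19.8 and 20.9 CPM in the labelled RNAi libraries (-0.40 ± 0.135, adjusted p = 0.0432). Its groups overlapped, and the call was lost without control replicate 3 (adjusted p = 0.0609). In all, 10 of 20 alternatives lost the call. They included 7 of the 10 fits with 1 library left out (edgeR, adjusted p up to 0.149, without labelled RNAi replicate 4). DESeq2, the 10 libraries alone and the fit without labelled RNAi replicate 1 each called 2 of the 8 lower. dd_8839 had a mean of 13.1 ± 3.07 and 9.82 ± 2.32 CPM (-0.47 ± 0.181, adjusted p = 0.0739), and it was called in 7 of 20 alternatives (adjusted p = 0.0488 in the 10 libraries alone). For the other 6, the log2 fold changes lay between -0.18 and 0.22. In the interaction of RNAi and time from 0 to 3 hpa, none of the 8 was called, and the smallest adjusted p was 0.836, for dd_5853 at -0.33. The 2 posterior transcripts given by number, dd_13735 and dd_9831, had differences of 0.07 and 0.12 at 3 hpa (adjusted p = 0.783 and 0.144). *teneurin* (dd_5439) was at 218.5 ± 18.9 and 234.1 ± 22.9 CPM and *bmp4* (dd_17402), a ligand of dorsal-ventral patterning, at 2.16 and 1.87 CPM, and neither was called (adjusted p = 0.594 and 0.519).

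A wider wound response was taken from control at 6 against 0 hpa, using no 3 hpa library, as 178 transcripts that rose and 85 that fell at least 2-fold. At 3 hpa, 176 of the rises were tested between the treatments. Of these 4 were higher and 7 lower in the libraries labelled *equinox* RNAi, 6.25% against 11.3% of all transcripts, and their median log2 fold change was 0.149 with 113 above and 63 below 0. Of 81 tested falls, 2 were higher and 6 lower, and the median was -0.0208. Among the called members of the first list were WDHD1 (0.70) and dd_8302 (0.43) on the higher side and dd_11156 (-1.35), dd_66392 (-1.12) and dd_20493 (-1.0) on the lower side, the last 4 named after their values were seen. In the second list dd_6318 fell most, by 2.08 (adjusted p = 1.06e-05), and dd_4411 was higher by 0.98 (adjusted p = 0.00885), both likewise named afterwards. The difference of dd_6318 was already there at 0 hpa (-2.39, edgeR, adjusted p = 1.34e-06) and was called at every time. Its interaction of 3 against 0 hpa, 0.32, did not pass the test (adjusted p = 0.965). From 0 to 3 hpa the first list changed by a median of 1.02 in control and 0.497 in the labelled RNAi libraries. At 0 hpa its median difference between the treatments was 0.522, and 1.8 for the list chosen at a minimum log2 fold change of 2. The list was chosen for low control values at 0 hpa. Neither the change in control nor the difference at 0 hpa is therefore independent of the choice, and no conclusion is drawn from them.

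Some members of the first list were present in single libraries only. dd_531 was at 0, 0.0455, 56.3, 28.3 and 0.269 CPM in control and at 0, 0, 0.211, 0.0769 and 112.4 CPM in the labelled RNAi libraries. dd_1320 followed the same libraries, with 15.6 CPM in control replicate 3, its highest control, and 62.1 CPM in labelled RNAi replicate 5. The mean over the list, on the log2 CPM scale, was highest in those libraries too, at 2.93 in control replicates 3 and 4 and 3.10 in labelled RNAi replicate 5, against 1.69 to 2.03 in the other controls and 2.06 to 2.69 in the other labelled RNAi libraries.

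The difference at 3 hpa was next set against that already present at 0 hpa. The interaction, which compares the treatment difference at 3 hpa with that at 0 hpa, called 1 of 20129 transcripts (0.00497%), dd_3578, while 1323 had an unadjusted p below 0.05, and DESeq2 called 21. dd_3578 was lower in the labelled RNAi libraries at 0 hpa (-0.67, adjusted p = 0.000573) and was at 50.2 CPM in control and 58.6 CPM in the labelled RNAi libraries at 3 hpa (0.23, adjusted p = 0.165), a difference of 0.90 between the times (adjusted p = 0.0417). It lost the call when any of control replicates 1, 2, 4 or 5 or labelled RNAi replicates 1, 4 or 5 was left out. At 0 hpa, 95 transcripts were called higher (0.472%) and 191 lower (0.949%) between the treatments. Of the 1164 rises of 3 hpa, 59 were called higher there and 1046 had a difference above 0, with a median of 0.163. Of the 1118 falls, 68 were called lower and 1048 had a difference below 0, with a median of -0.401. None was called in the opposite direction. Over all transcripts tested the median difference at 0 hpa was 0.000655. The labelled RNAi group at 0 hpa held only 4 libraries, and a missing interaction call does not show equal differences.

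At later times, where control and labelled RNAi libraries are again other samples, the same transcripts were followed. At 6 hpa, 19.2% of the rises and 280 of the falls (25%) were called in the same direction, where 3.7% and 3.96% of all transcripts were, and these were 30% of the rises and 35.1% of the falls of that time. The medians were 0.184 and -0.495. At 16 hpa the medians were 0.0662 and -0.137, and 53 and 40 were called in the same direction, 85.5% of the 62 rises and 66.7% of the 60 falls of that time (0.308% and 0.298% of all transcripts). At 24 hpa the medians were 0.0173 and 0.0243, so the transcripts that fell at 3 hpa were no longer lower on balance. At 48 hpa, where 8.07% and 9.46% of all transcripts were called higher and lower, 299 rises and 218 falls were called in the same direction, with 45 and 14 in the opposite one, and the medians were 0.157 and -0.341. In all, 743 rises and 709 falls of 3 hpa passed the test at no other time, and 31 rises and 22 falls passed it in the same direction at all 6 times. Whether the differences at 3 hpa exceeded those at 6 to 48 hpa was not tested.

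**Figure D5:**
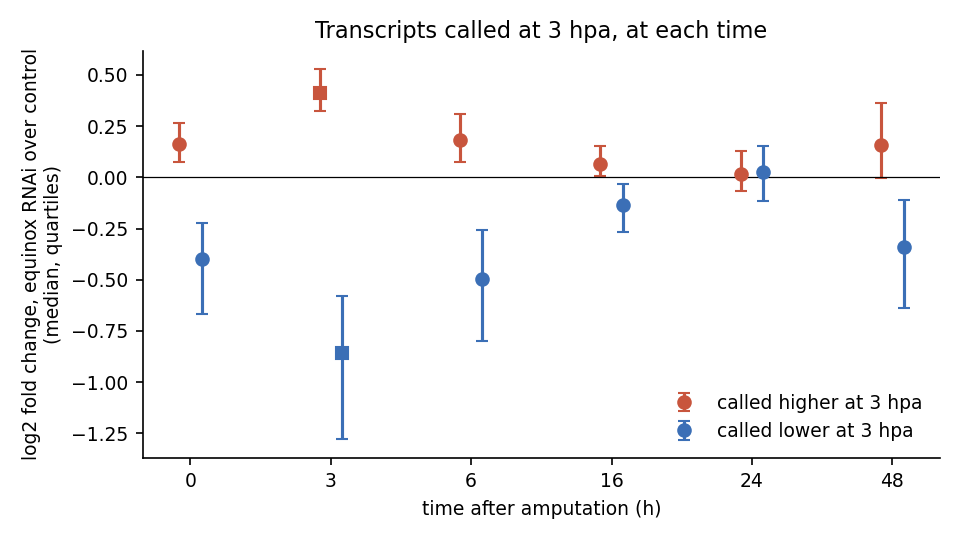
Median log2 fold change (points) with quartiles (bars), libraries labelled *equinox* RNAi over control, at each time for the 1164 transcripts called higher (red) and the 1118 called lower (blue) at 3 hpa; squares mark 3 hpa, where the transcripts were chosen. The medians at 0 hpa are 0.163 and -0.401, and at 24 hpa both lie near 0.

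The transcripts with the largest changes were also followed over time. dd_6337 had a log2 fold change of -3.60 right after the cut (0 hpa) and of -4.15, -3.39 and -3.80 at 6, 16 and 24 hpa, and its smallest was -1.62, at 48 hpa, each past the threshold. dd_4570, dd_122, dd_66, dd_1491 and dd_279 were higher at every time, dd_122 by 1.08 at 0 hpa and 2.57 at 48 hpa. dd_6955, dd_5199 and dd_2637 were lower at 0, 3 and 6 hpa and not called at 16 or 24 hpa, where dd_2637 had log2 fold changes of -0.32 and 0.22. Of the named falls, THNSL2 was lower at all 6 times (-1.54 at 0 hpa and -1.56 at 6 hpa). TRAF2 (dd_10117) was called at 3 hpa alone, with log2 fold changes of -0.01 at 0 hpa and 0.01 at 6 hpa, but its interaction of 3 against 0 hpa, -0.42, did not pass the test (adjusted p = 0.567). CYLD and dd_10696 (ZNFX1) were lower at 3 and 6 hpa and not called at the other times, and OSR1 was higher at 0, 3 and 24 hpa.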

How the data were processed

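RNA of anterior-facing wound fragments was sequenced in 58 libraries, and 10 of them were compared here. The authors trimmed reads, mapped them with bowtie to the dd_Smed_v6 transcriptome, and added up reads per transcript. The table they deposited holds raw counts, not normalized, of 28742 transcripts. The submitters' processing notes name cutadapt 1.8, Bowtie 1.2, SAMtools 1.6 and DESeq. No column of the table was left unmapped. Groups follow treatment and the time in the library title. The growth label gives amputation 7 days after the last feeding and the methods 3 days. Comparisons tabulated by the authors in the supplement to the paper were not used.

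All 58 libraries were fitted in 1 model of 12 treatment and time groups with edgeR 4.0.16 in R 4.3.3 (limma 3.58.1, quasi-likelihood, robust, TMM normalization), on the 20129 transcripts that passed filterByExpr (at least 10 counts). P-values were adjusted over all of them by the method of Benjamini and Hochberg, with a threshold of 0.05. CPM are TMM-scaled counts per 1000000. DESeq2 1.42.0 was an alternative, as were other size factors, no filter, the 10 libraries alone, a replicate block, the time field in place of the title, and each library left out. The study compared pairs of groups with DESeq. Fits were tested on simulated counts. In the fit of all libraries, 65 of 66 transcripts changed by 2 on the log2 scale at 3 hpa were recovered. Of those changed by 1, 49 of 67 were recovered, and of those changed by 0.585, 11 of 67, with 7 false calls among 18514 transcripts. The simulation gave every transcript the same spread and held no library unlike the rest of its group. It checks the fits and does not measure the false calls in the real libraries, which were less alike.

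No 2 replicates of a group agreed within sampling noise (lowest chi-square per degree of freedom 2.59). Each replicate pools 5 wounds, and the labels do not say whether replicates are separate experiments, so p-values measure the spread between these samples. The strain is clonal, and counting error alone limits scarce transcripts in control replicate 3.

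Human matches, and the lists built on them, came from the first 1200 entries, in alphabetical order of ID, of an annotation table supplied with the paper. That table is keyed by dd_Smed_v6 ID and also gives the matching ID of an earlier assembly, which had the same number for 1106 of 1174 transcripts. A second such table, without that column, named 461 of the same transcripts differently in every case and was not used, and no sequence was held here to settle which is right. The paper gives the table used with its *bmp4* RNAi comparison and the second with its *equinox* RNAi comparison, which covers these libraries. The shared numbers show that the IDs of the 2 assemblies line up, not that the human matches do. Named transcripts are those the study gives by number, the 6 largest rises and 6 largest falls that passed the threshold in 3 fits (all groups, the 10 libraries alone and without control replicate 3) with no overlap and a mean of at least 2 CPM, of the transcripts with a human match, the 12 rises and 12 falls of smallest adjusted p, up to 4 called members of each list, and, of the wound-response lists, the 5 rises and 5 falls with the largest change in control. Of these last, dd_25753, dd_16222, dd_41_1_1, dd_29099 and dd_26033 appear in the closing section only where their values moved. The comparison, its lists and rules were chosen with earlier results of these data known.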

Additional observations from a re-analysis of the deposited data

Results flagged for a closer look

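Among 174 sets of 5 values examined at 3 hpa (each named transcript and each library measure, per group), 9 had a highest or lowest sample far from the other 4; chance gives about 1 in 20. Control replicate 3 stood apart in the number of transcripts with a count, 19606 against 25193 to 26825, and in its mean rank correlation with the other controls, 0.967 against 0.980 to 0.983. It was also low for dd_10576 (PKM), at 1.36 CPM against 4.05 to 5.08 CPM. Other low controls were replicate 2 for dd_10113 (NLE1), at 15.2 CPM against 16.9 to 17.6 CPM, and replicate 4 for dd_10406 (DDR2), at 37.1 CPM against 42.7 to 44.1 CPM.

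In the libraries labelled *equinox* RNAi, replicate 3 was low for dd_10393 (LRFN5), at 16.0 CPM against 21.9 to 24.2 CPM, and for dd_29099, at 0 against 0.300 to 0.384 CPM. Replicate 5 was high for dd_531, at 112.4 CPM where the other 4 held at most 0.211 CPM, and for dd_1320, at 62.1 CPM where the others held at most 0.0769 CPM. dd_3578 had treatment differences that differed between 3 and 0 hpa by 0.90 on the log2 scale (edgeR interaction, adjusted p = 0.0417).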

How the results depend on the processing

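Calls at 3 hpa numbered 2282, and between 682 and 3594 when 1 library was left out (258 to 1880 higher, 407 to 1714 lower). Fitting only the 10 libraries gave 1786 falls. Placing the 5 libraries with differing labels by their time field gave 6189 calls (3294 higher, 2895 lower), and leaving out control replicate 3 with labelled RNAi replicate 3, chosen after seeing the data, gave 463 (154 higher, 309 lower). Same-numbered libraries deviated together by correlations of -0.18 to 0.324, and libraries of different number by -0.502 to 0.43. No pairing by number was seen, though so few pairs cannot exclude it. With a replicate block the 10 libraries gave 3593 calls (2022 lower). The interaction called 1 transcript, and 0 with RLE size factors or no filter, 13 when the groups compared were fitted alone, 5 when a replicate block was added, 13 by time field, 21 with DESeq2, and 0 to 12 with 1 library left out. List members called lower numbered 14, 23 with only the 10 libraries and 26 with DESeq2. Leaving out control replicate 3 or labelled RNAi replicate 1 gave 11 to 30 higher and 6 to 26 lower. Of the wound-response lists chosen at a minimum log2 fold change of 2, 0 were called by edgeR.

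No called named transcript changed sign under any alternative run, and 27 of 62 kept the call under all of them; the cause of the losses was not tested. Only transcripts without a call changed sign. dd_10393 was at -0.06 by time field, and dd_531 at -0.58 with a replicate block in all groups. dd_25753 was at 0.80 by time field, and dd_41_1_1 at 0.99 by time field, 0.04 and 0.36 with a replicate block in the 10 libraries and in all groups, and 0.25 in the 10 libraries without control replicate 3 (chosen after seeing the data). With libraries left out, dd_9490 ran from -0.04 to 0.13, dd_13735 from -0.01 to 0.12, dd_531 from -7.67 to 2.02, dd_1320 from -6.37 to 3.89, dd_25753 from -0.39 to 0.42 and dd_41_1_1 from -1.16 to 1.31.

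Depth limits transcripts of a few CPM, above all in control replicate 3, where 2 CPM is only a few counts. Neither base composition nor transcript length was examined.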
